A study of Xenopus laevis with 12 samples.

Results

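Transcript levels of whole heads of tadpoles of the African clawed frog, Xenopus laevis, were compared between 2 stages of normal growth, NF stage 47 and NF stage 45 of the Nieuwkoop and Faber series. The comparison uses the 6 libraries that the labels call control, 3 biological replicates at stage 47 and 3 at stage 45, out of 12 libraries in the series. The control heads are labelled wildtype. They carried no drug, and they passed through the same incubation at 18 °C during stages 14 to 26 as the embryos exposed to thioridazine, with rearing at 14 °C before and after it. Tadpoles were fed once they reached feeding stages, and neither the number of heads in a library nor the clutch it came from is given in the labels, so that p-values measure the spread between these libraries. The other 6 libraries are heads of tadpoles exposed to 90 µM thioridazine, an antipsychotic drug, with 3 at stage 47 and 3 at stage 45. They enter here as a second measurement of the stage change. They also share the main fit, so that the spread behind the p-values was estimated from all 12 libraries.

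Between these stages a tadpole takes up feeding and lives as a filter feeder, well before metamorphosis. Its head holds a cartilage skeleton formed from cranial neural crest, jaw and gill muscles, the brain, eyes that still add lens fibres and retinal cells at their rims, a larval epidermis with mucus-secreting cells, and the heart and gills close by. Most bone and the adult skin form later, much of it under thyroid hormone. Xenopus laevis is an allotetraploid, and most genes come as a pair of homeologs, marked L and S in the gene symbols.

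The 6 control libraries held between 11998636 and 16933777 counts. Defining markers of the labelled tissue were present at both stages. Over 6 brain markers the summed level was 387 to 419 CPM at stage 47, against 312 to 362 CPM at stage 45, over 8 eye markers it was 1920.3 to 3157 CPM at stage 47, against 2982 to 3631 CPM at stage 45, over 6 cartilage markers it was 1087 to 1762 CPM at stage 47, against 1849 to 2343 CPM at stage 45, and over 6 skeletal muscle markers it was 3400.4 to 4353 CPM at stage 47, against 3224 to 5082 CPM at stage 45. Levels are counts divided by the scaled library size and multiplied by 1000000 (CPM) throughout. Heart markers were present too, at 1226 to 1594 CPM at stage 47, against 999 to 1358 CPM at stage 45. Libraries also differed in organs that lie behind the head. The sum of 10 liver markers was 426, 815 and 974 CPM at stage 47, against 26.1, 207 and 116 CPM at stage 45. Every stage 47 library lay above every stage 45 library, and stage 45 replicate 1 was the lowest. What part this difference had in the results on other genes was not tested. The sum of 7 exocrine pancreas markers was 0.166, 0.886 and 124 CPM at stage 47, against 0.846, 1.08 and 1.21 CPM at stage 45. Stage 47 replicate 3 alone was above 1.21 CPM, with cpa1.L at 68.9 CPM and cela2a.L at 30.7 CPM, while the trypsin gene prss1.L and the lipase gene pnlip.L were at 0 in all 6. Intestine markers summed to 2.99 to 15.0 CPM at stage 47, against 2.43 to 3.77 CPM at stage 45, highest in the same library. Stage 45 replicate 2 stood apart from the other 2 stage 45 libraries, at -58.2 on a second principal component that held 18.8% of the variance. Counts of called genes in the lists with more than 2 calls in a direction are mostly also given without each control library in turn, and without both stage 47 replicate 3 and stage 45 replicate 1 ("without both").

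**Figure D1:**
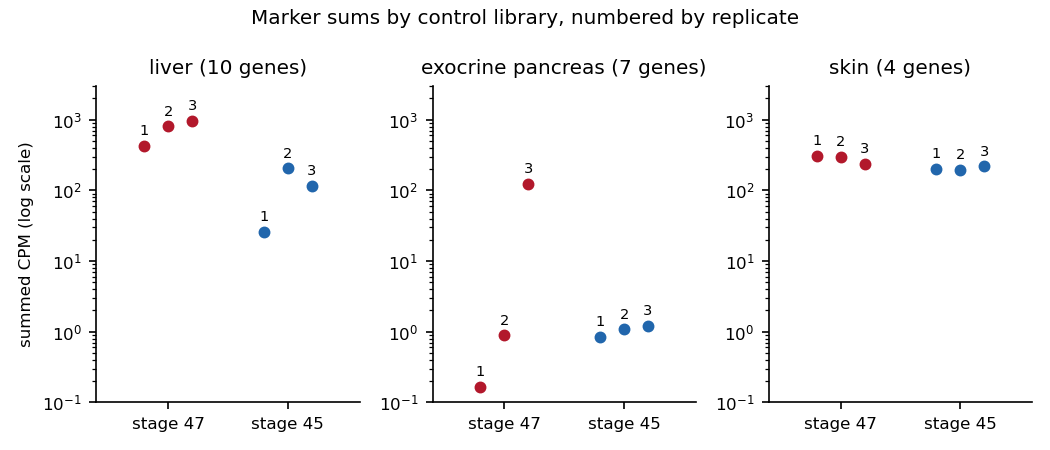
Summed CPM (log axis) of liver, exocrine pancreas and skin markers in each control library, stage 47 left and stage 45 right, with points numbered by replicate. Liver markers range from 26.1 to 974 CPM with no overlap between the stages. Pancreas markers reach 124 CPM in stage 47 replicate 3 alone. Skin markers lie at 237 to 310 CPM at stage 47 and 196 to 220 CPM at stage 45, also with no overlap.

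Of 27050 genes tested with edgeR's quasi-likelihood test, 1689 differed between stage 47 and stage 45 at a Benjamini-Hochberg adjusted p under 0.05 ("called" from here on), which is 6.24% of the genes tested. At stage 47, 820 were higher (3.03%) and 869 lower (3.21%). Of the genes tested, 11.7% had every stage 47 library above every stage 45 library and 13.3% had every one below. Among the called genes this held for 814 of the 820 and 867 of the 869. Separate stages were thus near certain for a called gene. Where they are stated below for such a gene, they describe it and add no support. The higher genes had the larger changes: 182 of them (22.2%) changed at least 2-fold, against 63 of the lower genes (7.25%). The median log2 fold change was 0.66 for the higher genes, -0.54 for the lower genes and -0.01 over all genes tested. The call counts depended on the libraries. They were 429 without stage 47 replicate 1, 443 without stage 47 replicate 2, 735 without stage 45 replicate 3 and 861 without stage 45 replicate 1. Leaving out both stage 47 replicate 3 and stage 45 replicate 1 gave 896. With the control libraries fitted alone, 660 genes were called, 448 higher and 212 lower. No called gene changed sign in any of these fits. Of the 195 called genes named by rule here, 82 were called in each of the 6 fits that left out 1 library, and 128 with the control libraries alone. Where leaving out a library ended the call of a gene described below, the end of the paragraph gives the left-out library with the highest adjusted p for it.

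**Figure D2:**
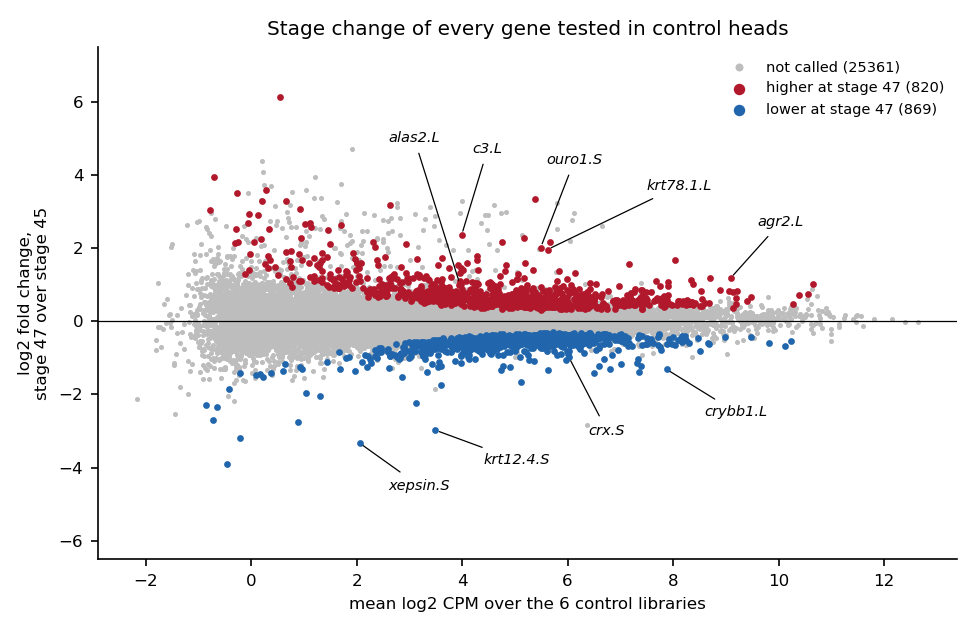
Log2 fold change of stage 47 over stage 45 against mean log2 CPM for the 27050 genes tested in control heads. The 820 genes called higher (red) and 869 called lower (blue) lie on both sides of the 25361 not called (grey), and the changes reach 6.13 and -3.89.

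Of 62 keratin and epidermal genes tested (77 in the list), 19 were higher at stage 47 (30.6%, against 3.03% of all genes) and none lower, with a median log2 fold change of 0.37 against -0.01 over all genes. The list does not hold the genes named krt12 with a further number, of which krt12.2.L and krt12.5.L were called higher and krt12.4.S, described further on, was called lower. The keratin gene krt78.1.L measured 117, 92.3 and 83.1 CPM at stage 47, against 23.9, 23.0 and 27.9 CPM at stage 45 (log2 fold change 1.96, SE 0.14, edgeR adjusted p = 1.52e-05). All stage 47 libraries lay at least 2-fold above all stage 45 libraries. In a whole-head library, more cells of a type and more RNA per cell cannot be told apart, here and in all results that follow. The hemidesmosome genes itga6.S and col17a1.L, whose products anchor basal epidermal cells to the basement membrane, were higher as well. The level of itga6.S was 66.0, 76.1 and 57.8 CPM at stage 47, against 36.3, 35.5 and 41.3 CPM at stage 45 (log2 fold change 0.82, SE 0.12, edgeR adjusted p = 0.00266), and col17a1.L had a log2 fold change of 0.96 (edgeR adjusted p = 0.00569). Both genes were separate between the stages. The tight junction gene cldn1.L (0.60, edgeR adjusted p = 0.00580) and the desmosome gene pkp1.S (2.93, edgeR adjusted p = 0.00947) were higher too. The level of pkp1.S was only 1.91, 3.01 and 2.08 CPM at stage 47, against 0.154, 0.166 and 0.520 CPM at stage 45. Higher epidermal genes numbered 6 without stage 47 replicate 1 or 2, 9 without stage 45 replicate 1, 10 without stage 45 replicate 3, 15 without stage 47 replicate 3 or stage 45 replicate 2 and 12 without both. The 4 skin markers, tp63 and dsp, summed to 309.7, 298 and 237 CPM at stage 47, against 202, 196 and 220.2 CPM at stage 45.

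Genes of secretory cells of the larval skin that were called were mostly higher. Of 37 genes of mucus-secreting cells, small secretory cells and ionocytes tested, 10 were higher (27.0%, against 3.03% of all genes). Only 1 was lower (2.70%, near the 3.21% of all genes), and the median was 0.10. The larval skin antigen gene ouro1.S, whose product is known in Xenopus as a target of T cells at tail regression, measured 69.1, 129 and 78.5 CPM at stage 47, against 18.5, 26.5 and 23.4 CPM at stage 45 (log2 fold change 2.02, SE 0.23, edgeR adjusted p = 0.00160). Its partner ouro2.L had a log2 fold change of 2.27 (edgeR adjusted p = 0.00872; chosen after its values were seen). The agr2.L gene encodes a disulphide isomerase of mucus-secreting cells that is also known from the cement gland. It measured 878, 859 and 745 CPM at stage 47, against 305, 469.7 and 322 CPM at stage 45 (log2 fold change 1.18, SE 0.18, edgeR adjusted p = 0.00394). Its homeolog agr2.S was higher too (0.82, edgeR adjusted p = 0.0150). The mucin gene muc1.S (0.87, edgeR adjusted p = 0.00394) and the goblet cell regulator spdef.S (0.64, edgeR adjusted p = 0.00580) were higher, each with no overlap between the stages. In fits without 1 library, higher genes in this group numbered 6 without stage 47 replicate 1 or stage 45 replicate 1, 7 without stage 47 replicate 2 or stage 45 replicate 3, 9 without stage 47 replicate 3 or stage 45 replicate 2 and 5 without both. The call of agr2.S (adjusted p = 0.0657) ended without stage 45 replicate 3.

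The largest falls were in 3 secreted proteases and a keratin. This ranking covers called genes with a gene name, at least 1 CPM in a stage and no overlap between the stages. The serine protease gene xepsin.S measured 0.998, 2.01 and 0.833 CPM at stage 47, against 12.2, 17.1 and 10.2 CPM at stage 45 (log2 fold change -3.33, SE 0.32, edgeR adjusted p = 0.000381), with every stage 47 library far below every stage 45 library. The astacin protease genes astl3b.1.L and astl2e.2.L, of the family that holds the hatching enzymes, were close to the limit of detection at stage 47. The level of astl3b.1.L was 0, 0.413 and 0 CPM at stage 47, against 1.46, 3.25 and 2.37 CPM at stage 45 (log2 fold change -3.89, SE 0.70, edgeR adjusted p = 0.00770). The level of astl2e.2.L was 0.249, 0.472 and 0 CPM at stage 47, against 3.15, 1.66 and 2.02 CPM at stage 45 (log2 fold change -3.20, SE 0.57, edgeR adjusted p = 0.00750). The keratin gene krt12.4.S, which is not in the list of keratin and epidermal genes, measured 3.57, 4.31 and 4.11 CPM at stage 47, against 21.1, 39.1 and 34.9 CPM at stage 45 (log2 fold change -2.98, SE 0.58, edgeR adjusted p = 0.0219). The stages did not overlap for it, which the ranking required. Of 10 cement gland and hatching gland genes tested (18 in the list), 2 were higher (20%, against 3.03% of all genes), both of them the agr2 homeologs named above. Another 3 were lower (30%, against 3.21%), the 2 astacins and the homeobox gene otx1.L (-0.47, edgeR adjusted p = 0.0458). With 10 genes tested, each gene is a large part of these shares. Whether the fall of otx1.L came from a gland was not tested. Lower genes of the gland list numbered 2 without stage 47 replicate 1 or 2 or stage 45 replicate 1, 2 or 3, 3 without stage 47 replicate 3 and 2 without both. Among 70 motile cilia genes, 1 was higher (1.43%, against 3.03% of all genes). It was mcidas.L (1.06, edgeR adjusted p = 0.0155), which drives formation of multiciliated cells. The calls of otx1.L (adjusted p = 0.168), mcidas.L (0.0630) and krt12.4.S (0.0866) ended without stage 47 replicate 1.

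**Figure D3:**
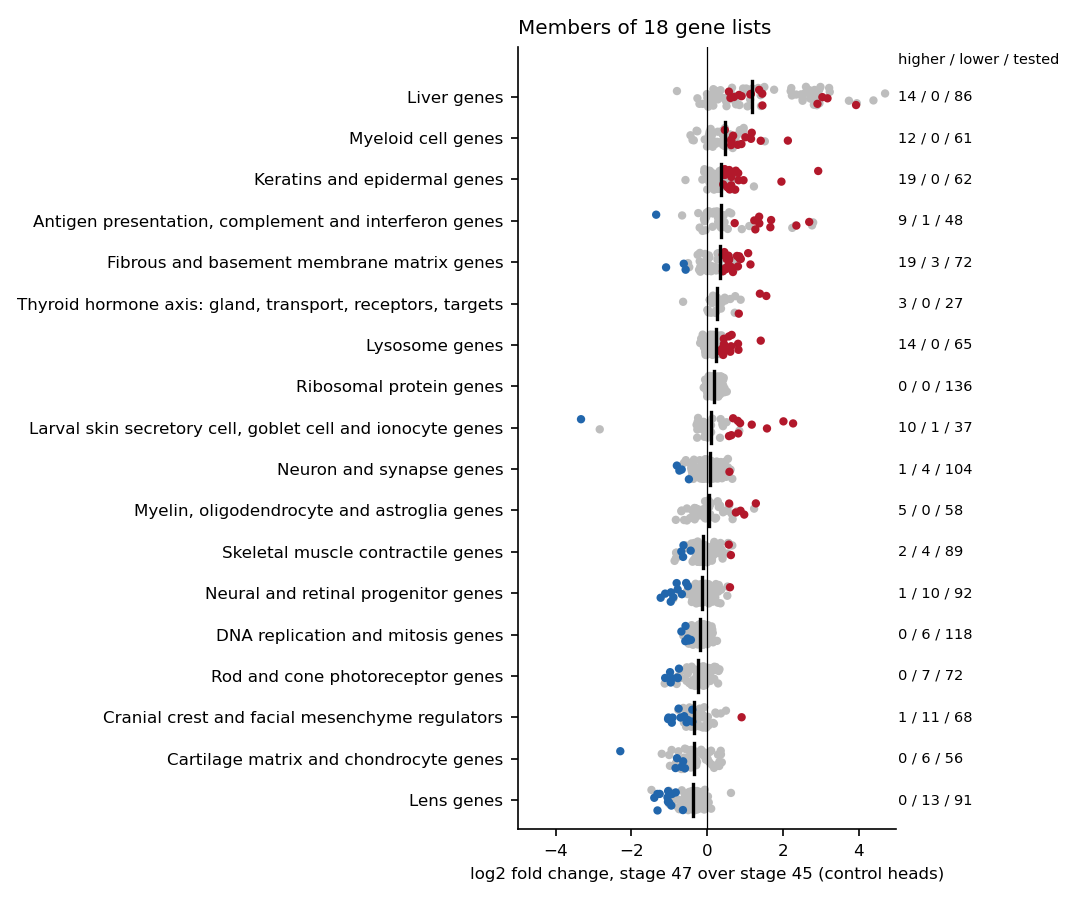
Log2 fold change (stage 47 over stage 45) of the tested members of 18 gene lists in control heads, 1 point per gene, red where called higher, blue where called lower and grey where not called, with the list's median as a black bar. Lists run from the highest median at the top (liver, 1.18) to the lowest at the bottom (lens, -0.38), and the numbers at the right give genes called higher, called lower and tested.

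The fibrous matrix genes that were called were mostly higher and the cartilage genes that were called were all lower, while 50 genes of each list did not pass the test. Of 72 fibrous and basement membrane matrix genes, 19 were higher (26.4%, against 3.03% of all genes) and 3 lower (4.17%, against 3.21%), with a median of 0.35. Of 56 cartilage genes tested, none was higher and 6 were lower (10.7%, against 3.21% of all genes), with a median of -0.35. The gene of a collagen that binds the surface of collagen fibrils, col12a1.L, measured 106, 91.3 and 87.7 CPM at stage 47, against 34.1, 45.2 and 49.2 CPM at stage 45 (log2 fold change 1.15, SE 0.19, edgeR adjusted p = 0.00699). The fibril proteoglycan gene lum.S measured 349, 407 and 294 CPM at stage 47, against 189, 129 and 177 CPM at stage 45 (log2 fold change 1.08, SE 0.15, edgeR adjusted p = 0.00216). Neither gene overlapped between the stages. The fibrillar collagen gene col5a2.S (0.64, edgeR adjusted p = 0.00539) and the basement membrane gene nid1.S (0.58, edgeR adjusted p = 0.00750) were also higher. The 3 lower genes were thbs4.S, of tendon matrix, and both homeologs of emilin1, an elastic fibre glycoprotein. The level of thbs4.S was 10.3, 9.27 and 10.1 CPM at stage 47, against 21.8, 20.8 and 20.3 CPM at stage 45 (log2 fold change -1.08, SE 0.13, edgeR adjusted p = 0.00160), and emilin1.L had a log2 fold change of -0.62 (edgeR adjusted p = 0.00699). For emilin1.S the values were -0.57 and 0.0477. With 1 library left out, higher matrix genes numbered 5 without stage 47 replicate 1, 7 without stage 47 replicate 2, 8 without stage 45 replicate 1, 13 without stage 45 replicate 3, 15 without stage 45 replicate 2, 17 without stage 47 replicate 3 and 10 without both. The call of emilin1.S (adjusted p = 0.154) ended without stage 47 replicate 2.

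In cartilage, papss2.S, which makes the sulphate donor for proteoglycans, measured 28.3, 21.3 and 33.7 CPM at stage 47, against 50.2, 47.1 and 51.0 CPM at stage 45 (log2 fold change -0.83, SE 0.15, edgeR adjusted p = 0.00837). The cartilage collagen gene col9a3.S had a log2 fold change of -0.68 (edgeR adjusted p = 0.0181). The main cartilage collagen did not pass the test: col2a1.L measured 701, 438 and 736 CPM at stage 47, against 704, 778 and 948 CPM at stage 45 (log2 fold change -0.37, SE 0.18, edgeR adjusted p = 0.251), and col2a1.S had a log2 fold change of -0.50 (edgeR adjusted p = 0.0731). The chondrocyte regulator sox9 did not pass either, at -0.53 for sox9.L and -0.33 for sox9.S (edgeR adjusted p = 0.0915 and 0.123). Of 56 cartilage genes, 42 lay below 0 and the summed level was 4479.9, 3452 and 4754 CPM at stage 47, against 5445, 4970.5 and 6055 CPM at stage 45, without overlap. Lower cartilage genes numbered 1 without stage 47 replicate 2 or stage 45 replicate 3, 2 without stage 47 replicate 1, 3 without stage 45 replicate 1, 6 without stage 45 replicate 2, 10 without stage 47 replicate 3 and 5 without both. Of 28 bone genes tested, 4 were higher (14.3%, against 3.03% of all genes) and 2 lower (7.14%, against 3.21%). Higher bone genes numbered 0 without stage 47 replicate 2 or stage 45 replicate 3, 1 without stage 47 replicate 1 or stage 45 replicate 1, 3 without stage 47 replicate 3, 5 without stage 45 replicate 2 and 2 without both. The type I collagen gene col1a2.S measured 777, 819.6 and 661 CPM at stage 47, against 357, 519.7 and 417 CPM at stage 45 (log2 fold change 0.80, SE 0.18, edgeR adjusted p = 0.0173), and col1a1.S, also a dermal and tendon collagen, had 0.75 (edgeR adjusted p = 0.0382). The osteoclast phosphatase gene acp5.L (0.71, edgeR adjusted p = 0.0168) and the periosteal matrix gene postn.L (0.67, edgeR adjusted p = 0.0181) were higher. The 2 lower genes were the jaw patterning factors dlx5.L (-0.48, edgeR adjusted p = 0.0335) and dlx6.L (-0.58, edgeR adjusted p = 0.0481). The call of col9a3.S (adjusted p = 0.0648) ended without stage 45 replicate 3. The calls of col1a2.S (adjusted p = 0.0756) and acp5.L (0.0820) ended without stage 47 replicate 1. The calls of col1a1.S (adjusted p = 0.136), postn.L (0.0885), dlx5.L (0.135) and dlx6.L (0.173) ended without stage 47 replicate 2.

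Of 68 regulators of facial mesenchyme tested, 11 were lower at stage 47 (16.2%, against 3.21% of all genes) and 1 was higher, with a median of -0.35 and 56 below 0. The forkhead gene foxc1.L measured 11.1, 10.8 and 14.8 CPM at stage 47, against 23.5, 27.4 and 24.3 CPM at stage 45 (log2 fold change -1.03, SE 0.15, edgeR adjusted p = 0.00255), and its homeolog foxc1.S had -0.91 (edgeR adjusted p = 0.00750). The pharyngeal arch homeobox gene barx1.S measured 15.2, 9.27 and 15.9 CPM at stage 47, against 24.2, 30.6 and 26.9 CPM at stage 45 (log2 fold change -1.02, SE 0.18, edgeR adjusted p = 0.00662). None of these 3 genes overlapped between the stages. Another forkhead gene, foxf1.S, was lower too (-0.93, edgeR adjusted p = 0.0135). The higher gene was edn1.L, the endothelin ligand that patterns the lower jaw in vertebrate embryos (0.91, edgeR adjusted p = 0.0170). In fits without 1 library, lower genes numbered 3 without stage 47 replicate 1 or 2, 4 without stage 45 replicate 3, 7 without stage 45 replicate 2, 8 without stage 45 replicate 1, 10 without stage 47 replicate 3 and 8 without both. Among 27 genes of matrix metalloproteinases and their inhibitors, 3 were higher (11.1%, against 3.03% of all genes) and none lower. The collagenase gene mmp13.S measured 11.3, 6.97 and 9.64 CPM at stage 47, against 3.54, 3.08 and 2.08 CPM at stage 45 (log2 fold change 1.69, SE 0.26, edgeR adjusted p = 0.00372). For mmp8.L, another collagenase, the log2 fold change was 1.11 (edgeR adjusted p = 0.00350) and the stromelysin gene mmp3.L had 0.75 (edgeR adjusted p = 0.00460). For all 3 the stages did not overlap. Higher genes of metalloproteinases and their inhibitors numbered 3 without stage 47 replicate 1 or 2 or stage 45 replicate 1, 2 or 3, 4 without stage 47 replicate 3 and 4 without both. The calls of edn1.L (adjusted p = 0.0820) and foxf1.S (0.0703) ended without stage 47 replicate 1.

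The lens and photoreceptor genes that were called were all lower at stage 47. Of 91 lens genes tested (108 in the list), 13 were lower (14.3%, against 3.21% of all genes) and none higher, and 87 lay below 0 (median -0.38). The summed level was 10645, 6935 and 7919 CPM at stage 47, against 13058, 14781 and 8242 CPM at stage 45, which overlapped. The crystallin gene crybb1.L measured 173, 114 and 173 CPM at stage 47, against 435, 462 and 245 CPM at stage 45 (log2 fold change -1.31, SE 0.27, edgeR adjusted p = 0.0172). The stages did not overlap, but stage 45 replicate 3 was the lowest of its stage. The crystallin gene cryba2.S (-1.31, edgeR adjusted p = 0.0202) and the beaded filament gene bfsp2.S (-1.0, edgeR adjusted p = 0.0185) were lower too. With 1 library left out, lower lens genes numbered 1 without stage 47 replicate 2 or stage 45 replicate 1, 2 without stage 47 replicate 1, 3 without stage 45 replicate 2, 8 without stage 47 replicate 3, 22 without stage 45 replicate 3 and 0 without both. In thioridazine heads the same list went the other way, with a median of 0.50. There 5 of the 91 were higher, against 2.09% of all genes, and none was lower. The difference between the stage changes did not pass the test for any lens gene with edgeR, and DESeq2 called it for crygbl.5.S (DESeq2 adjusted p = 0.0069). The call of cryba2.S (adjusted p = 0.0719) ended without stage 45 replicate 1. The calls of crybb1.L (adjusted p = 0.0668) and bfsp2.S (0.0849) ended without stage 47 replicate 2.

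Of 72 rod and cone genes tested, 7 were lower (9.72%, against 3.21% of all genes) and none higher (median -0.25, against 0.14 in thioridazine heads). Their summed levels overlapped between the stages. The photoreceptor transcription factor gene crx.S measured 51.1, 35.7 and 53.6 CPM at stage 47, against 109, 92.5 and 75.7 CPM at stage 45 (log2 fold change -0.98, SE 0.17, edgeR adjusted p = 0.00728). The cone opsin kinase gene grk7.L measured 19.4, 16.9 and 22.7 CPM at stage 47, against 37.6, 29.4 and 31.9 CPM at stage 45 (log2 fold change -0.74, SE 0.13, edgeR adjusted p = 0.00644). Both were separate between the stages. The crx.L homeolog was lower too (-0.79, edgeR adjusted p = 0.0189). The rod opsin gene did not pass the test: rho.L measured 1218, 791 and 1485 CPM at stage 47, against 1199, 1268 and 1238 CPM at stage 45 (log2 fold change -0.08, SE 0.18, edgeR adjusted p = 0.841), and rho.S had -0.31 (edgeR adjusted p = 0.343). Lower photoreceptor genes numbered 2 without stage 47 replicate 1 or 2 or stage 45 replicate 1, 4 without stage 45 replicate 3, 7 without stage 45 replicate 2, 9 without stage 47 replicate 3 and 6 without both. Of 23 pigment epithelium genes, 2 were lower (8.70%, against 3.21% of all genes). They were both homeologs of the retinoid carrier rlbp1 (-0.63 and -0.59, edgeR adjusted p = 0.0287 and 0.0426). The calls of crx.L (adjusted p = 0.0614) and rlbp1.L (0.138) ended without stage 45 replicate 1. The call of rlbp1.S (adjusted p = 0.122) ended without stage 47 replicate 2.

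Neural and retinal progenitor genes were lower in 10 of 92 cases (10.9%, against 3.21% of all genes) and higher in 1. The homeobox gene vsx1.S, of retinal bipolar cells, measured 7.07, 6.08 and 10.7 CPM at stage 47, against 23.6, 16.7 and 15.7 CPM at stage 45 (log2 fold change -1.23, SE 0.21, edgeR adjusted p = 0.00625). The eye field gene pax6.L had -0.80 (edgeR adjusted p = 0.0115), pax6.S -0.89 (edgeR adjusted p = 0.0135) and six3.S -0.78 (edgeR adjusted p = 0.0114). The higher gene was nes.L, an intermediate filament gene (0.60, edgeR adjusted p = 0.0266). In fits without 1 library, lower progenitor genes numbered 1 without stage 47 replicate 1 or 2, 4 without stage 45 replicate 1, 8 without stage 45 replicate 3, 9 without stage 45 replicate 2, 11 without stage 47 replicate 3 and 8 without both. The sum of the eye markers given above overlapped between the stages, while the crystallin markers crybb1.L, crybb1.S and cryaa.S did not. The calls of pax6.L (adjusted p = 0.0637), pax6.S (0.0716), six3.S (0.0631) and nes.L (0.107) ended without stage 47 replicate 1.

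Both mbp homeologs, genes of the myelin sheath, were higher. Of 58 myelin and glial genes, 5 were higher (8.62%, against 3.03% of all genes) and none lower. The median was 0.04, so that most of the list lay near the median of all genes. Higher myelin and glial genes numbered 3 without stage 47 replicate 1 or 2 or stage 45 replicate 3, 4 without stage 45 replicate 1, 5 without stage 47 replicate 3 or stage 45 replicate 2 and 4 without both. The myelin basic protein gene mbp.S measured 19.7, 25.9 and 18.9 CPM at stage 47, against 12.2, 10.9 and 9.66 CPM at stage 45 (log2 fold change 0.98, SE 0.16, edgeR adjusted p = 0.00563), and mbp.L had 0.88 (edgeR adjusted p = 0.0187). The stages did not overlap for mbp.S. The neuregulin receptor gene erbb3.L, needed by Schwann cells, measured 38.6, 41.9 and 39.4 CPM at stage 47, against 21.8, 22.9 and 26.0 CPM at stage 45 (log2 fold change 0.76, SE 0.12, edgeR adjusted p = 0.00421), and mal.L, also of myelin and chosen after its values were seen, had 0.58 (edgeR adjusted p = 0.0339). Neuron and synapse genes gave 1 higher and 4 lower of 104 (3.85% lower, near the 3.21% of all genes). Lower neuron genes numbered 1 without stage 47 replicate 1 or 2 or stage 45 replicate 1 or 3, 2 without stage 45 replicate 2, 7 without stage 47 replicate 3 and 5 without both. The vesicle calcium sensor gene syt1.L had 0.59 (edgeR adjusted p = 0.0109), and mapt.L, encoding tau, had -0.67 (edgeR adjusted p = 0.00750). Lower too were both synapsin genes syn1.S and syn1.L (-0.73 and -0.48, edgeR adjusted p = 0.0463 and 0.0487). Of 38 inner ear and sensory genes, 2 were lower (5.26%, against 3.21% of all genes). They were otop1.L (-1.11, edgeR adjusted p = 0.0237) and tectb.S (-1.0, edgeR adjusted p = 0.0479), which serve the otoliths and the tectorial membrane. No gene of 31 for the pituitary was called with edgeR (1 by DESeq2), with 28 above 0 (median 0.36). At an unadjusted p under 0.05, 8 were higher and 1 lower. No share of all genes at that threshold stands beside these counts, so an excess cannot be read from them. The calls of otop1.L (adjusted p = 0.102), tectb.S (0.147), syn1.S (0.166) and syn1.L (0.197) ended without stage 47 replicate 1. The calls of mbp.L (adjusted p = 0.0849), mal.L (0.138) and syt1.L (0.0550) ended without stage 47 replicate 2.

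**Figure D4:**
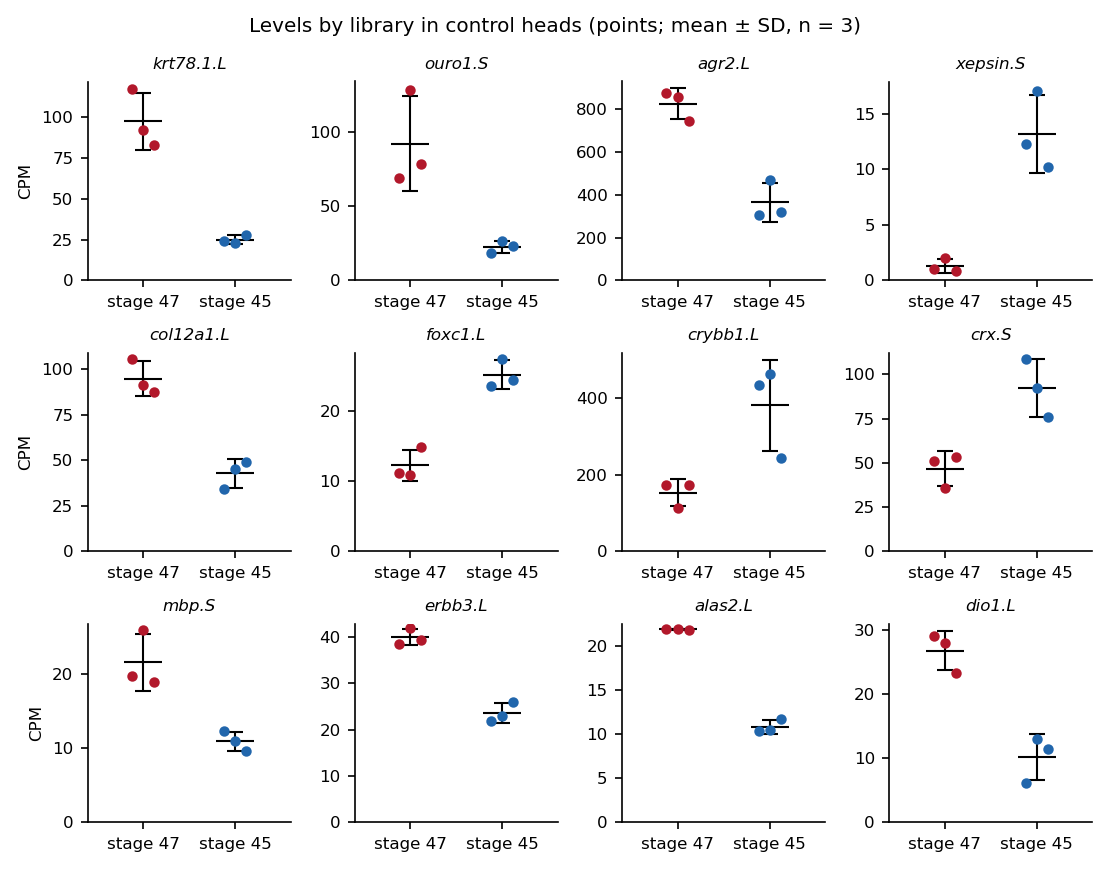
CPM by library of 12 named genes in control heads, stage 47 left (red) and stage 45 right (blue), with the mean and SD of 3 libraries as black bars. The stages do not overlap for any of the 12, as for nearly all called genes. Lower at stage 47 are xepsin.S, foxc1.L, crybb1.L and crx.S, and the others are higher.

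Of 27 thyroid hormone genes tested (38 in the list), 3 were higher (11.1%, against 3.03% of all genes), none was lower and 26 lay above 0 (median 0.25). The summed level was 1442, 1673 and 1369 CPM at stage 47, against 797, 789 and 1056 CPM at stage 45, without overlap. The member with the highest level averaged 805 CPM in 1 of the stages, so the sum largely follows few genes. Higher thyroid hormone genes numbered 1 without stage 47 replicate 2, 2 without stage 45 replicate 1, 3 without stage 47 replicate 1 or stage 45 replicate 2, 4 without stage 47 replicate 3 or stage 45 replicate 3 and 1 without both. The deiodinase gene dio1.L, whose product converts thyroid hormone, measured 29.0, 27.9 and 23.3 CPM at stage 47, against 6.08, 13.0 and 11.4 CPM at stage 45 (log2 fold change 1.39, SE 0.23, edgeR adjusted p = 0.00651). The genes thdl20.S and thdl18.S are named for a fall under thyroid hormone in Xenopus. The level of thdl20.S was 220.3, 329 and 225 CPM at stage 47, against 63.6, 57.8 and 139.9 CPM at stage 45 (log2 fold change 1.56, SE 0.30, edgeR adjusted p = 0.0147), and thdl18.S had 0.84 (edgeR adjusted p = 0.0129). Direct hormone response genes did not pass. The level of thrb.S, a hormone receptor gene, was 2.16, 1.54 and 1.79 CPM at stage 47, against 2.00, 0.915 and 1.62 CPM at stage 45 (log2 fold change 0.25, SE 0.32, edgeR adjusted p = 0.720). The log2 fold change was 0.11 for klf9.L and 0.22 for dio3.L (edgeR adjusted p = 0.904 and 0.514). Their values overlapped between the stages. The call of thdl20.S (adjusted p = 0.0581) ended without stage 45 replicate 1. The call of thdl18.S (adjusted p = 0.0585) ended without stage 47 replicate 2.

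Skeletal muscle genes gave 2 higher and 4 lower of 89 (2.25% and 4.49%, near the shares of all genes; median -0.11), with overlapping sums of 20531, 15978 and 18195 CPM at stage 47, against 18651, 24459.8 and 17282 CPM at stage 45. Lower skeletal muscle genes numbered 0 without stage 47 replicate 2, 1 without stage 47 replicate 1, 2 without stage 47 replicate 3 or stage 45 replicate 1 or 2, 4 without stage 45 replicate 3 and 1 without both. The slow and cardiac troponin gene tnnc1.L (0.63, edgeR adjusted p = 0.0171) and the Z-disc gene actn2.L (0.57, edgeR adjusted p = 0.0356) were higher. The myosin chaperone gene unc45b.S (-0.63, edgeR adjusted p = 0.0169) and the calcium pump gene atp2a1.L (-0.62, edgeR adjusted p = 0.0300) were lower. Of 30 myogenic regulators, 1 was lower (3.33%, near the 3.21% of all genes), the fusion factor gene mymk.L (-0.80, edgeR adjusted p = 0.0347). In the heart list, 4 of 46 were higher (8.70%, against 3.03% of all genes) and 2 lower (4.35%, against 3.21%). This list overlaps the skeletal muscle list, with the same gene highest in both (2466 CPM in 1 of the stages), so their counts are not independent. Higher heart genes numbered 0 without stage 47 replicate 1 or stage 45 replicate 1 or 3, 1 without stage 47 replicate 2, 3 without stage 47 replicate 3, 6 without stage 45 replicate 2 and 0 without both, and lower ones 0 without stage 47 replicate 1 or 2 or stage 45 replicate 2, 1 without stage 47 replicate 3 or stage 45 replicate 1 or 3 and 1 without both. The higher ones included the natriuretic peptide genes nppa.L and nppb.L. The level of nppa.L was 27.5, 19.1 and 21.2 CPM at stage 47, against 9.62, 14.1 and 9.89 CPM at stage 45 (log2 fold change 1.01, SE 0.23, edgeR adjusted p = 0.0222), and nppb.L had 1.19 (edgeR adjusted p = 0.0199). Vessel genes gave 3 higher and 3 lower of 46 (6.52% each, against 3.03% and 3.21% of all genes). Higher vessel genes numbered 0 without stage 47 replicate 1, 1 without stage 47 replicate 2 or stage 45 replicate 1, 2 without stage 47 replicate 3 or stage 45 replicate 2 or 3 and 2 without both, and lower ones 0 without stage 47 replicate 1, 1 without stage 45 replicate 1 or 2, 2 without stage 47 replicate 2 or stage 45 replicate 3, 6 without stage 47 replicate 3 and 3 without both. The endothelial scavenger receptor gene stab2.L was higher (0.91, edgeR adjusted p = 0.0109), while the smooth muscle genes acta2.S (-1.24, edgeR adjusted p = 0.0167) and cnn1.L (-1.27, edgeR adjusted p = 0.0434) were lower. The call of cnn1.L (adjusted p = 0.113) ended without stage 45 replicate 1. The call of actn2.L (adjusted p = 0.148) ended without stage 45 replicate 3. The calls of tnnc1.L (adjusted p = 0.0869), nppa.L (0.101), nppb.L (0.0900), stab2.L (0.0581) and acta2.S (0.0760) ended without stage 47 replicate 1. The calls of unc45b.S (adjusted p = 0.0821) and atp2a1.L (0.130) ended without stage 47 replicate 2. The call of mymk.L (adjusted p = 0.109) ended without stage 47 replicate 3.

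Red blood cell genes were higher in 4 of 48 cases (8.33%, against 3.03% of all genes) and lower in none. Higher red blood cell genes numbered 1 without stage 47 replicate 2, 2 without stage 47 replicate 1 or stage 45 replicate 3, 3 without stage 45 replicate 1, 4 without stage 47 replicate 3, 5 without stage 45 replicate 2 and 3 without both. The enzyme gene alas2.L, which catalyses the first step of haem synthesis in red cells, measured 21.9, 21.9 and 21.8 CPM at stage 47, against 10.3, 10.5 and 11.7 CPM at stage 45 (log2 fold change 1.01, SE 0.13, edgeR adjusted p = 0.00160). For alas2.L the 3 libraries of each stage lay close together and the stages were far apart. Its homeolog alas2.S measured 27.1, 25.2 and 17.0 CPM at stage 47, against 15.9, 20.7 and 11.3 CPM at stage 45, overlapping between the stages and not called (log2 fold change 0.54, SE 0.33, edgeR adjusted p = 0.396). The ammonium channel gene rhag.S of the red cell membrane had 1.59 (edgeR adjusted p = 0.0142). Globin genes did not pass the test. The level of hba3.L was 2031, 2212 and 2416 CPM at stage 47, against 762, 1612 and 1202 CPM at stage 45 (log2 fold change 0.90, SE 0.26, edgeR adjusted p = 0.0581), without overlap, and the other alpha globin genes named by rule ranged from -0.09 for hba1.S to 0.63 for hba4.S. Blood markers summed to 124 to 144 CPM at stage 47, against 92.4 to 100.3 CPM at stage 45. The call of rhag.S (adjusted p = 0.0702) ended without stage 47 replicate 2.

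Genes of myeloid cells were higher in 12 of 61 cases (19.7%, against 3.03% of all genes) and lower in none (median 0.47). The gene apoe.L, encoding a lipid carrier, measured 103, 114 and 111 CPM at stage 47, against 54.5, 74.6 and 58.7 CPM at stage 45 (log2 fold change 0.81, SE 0.11, edgeR adjusted p = 0.00216). What part the higher liver marker sums at stage 47 had in the result for apoe.L was not tested. The NADPH oxidase subunit gene cyba.L measured 8.06, 6.91 and 8.45 CPM at stage 47, against 3.15, 4.08 and 4.34 CPM at stage 45 (log2 fold change 1.01, SE 0.18, edgeR adjusted p = 0.00806). The granulocyte growth factor receptor gene csf3r.L had 1.18 (edgeR adjusted p = 0.0154) and the protease gene ctsl.L 1.42 (edgeR adjusted p = 0.0135). With 1 library left out, higher myeloid genes numbered 3 without stage 47 replicate 2, 4 without stage 47 replicate 1 or stage 45 replicate 1, 6 without stage 45 replicate 3, 7 without stage 45 replicate 2, 8 without stage 47 replicate 3 and 3 without both. In thioridazine heads 11 of the 61 were higher (median 0.57), against 2.09% of all genes. Lysosome genes were higher in 14 of 65 cases (21.5%, against 3.03% of all genes) and lower in none (median 0.23). Of the lysosome genes, 2 (ctsl.L and ctss.S) are also in the myeloid list. The fucosidase gene fuca1.L measured 146, 154 and 135 CPM at stage 47, against 67.9, 90.4 and 88.6 CPM at stage 45 (log2 fold change 0.82, SE 0.12, edgeR adjusted p = 0.00328), and the thioesterase gene ppt1.S had 0.83 (edgeR adjusted p = 0.0106). Higher lysosome genes numbered 2 without stage 47 replicate 2, 3 without stage 45 replicate 1, 4 without stage 47 replicate 1, 5 without stage 45 replicate 3, 11 without stage 47 replicate 3, 16 without stage 45 replicate 2 and 5 without both. Of 22 lymphoid and thymus genes tested (52 in the list), none was higher and 1 was lower (4.55%, against 3.21% of all genes). It was eomes.L (-0.63, edgeR adjusted p = 0.0320). The call of ctsl.L (adjusted p = 0.0579) ended without stage 45 replicate 1. The calls of csf3r.L (adjusted p = 0.0725), ppt1.S (0.0550) and eomes.L (0.128) ended without stage 47 replicate 2.

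Of 48 antigen presentation, complement and interferon genes, 9 were higher (18.8%, against 3.03% of all genes) and 1 was lower (median 0.36), while 38 did not pass. The liver marker sums given above were also higher at stage 47, and their part in this result and in that on the liver genes was not tested. The central complement gene c3.L measured 25.1, 36.9 and 47.2 CPM at stage 47, against 5.46, 8.49 and 7.4 CPM at stage 45 (log2 fold change 2.36, SE 0.24, edgeR adjusted p = 0.000505). The stages were far apart. In thioridazine heads its log2 fold change was 0.43 (edgeR adjusted p = 0.329), and DESeq2 called the difference between the 2 stage changes (adjusted p = 0.000353), which edgeR did not. The liver markers in thioridazine heads summed to 371, 21.3 and 365 CPM at stage 47, against 349, 197 and 23.1 CPM at stage 45. Their part in the difference for c3.L was not tested. The alternative pathway gene cfb.L measured 30.3, 35.7 and 39.3 CPM at stage 47, against 7.46, 13.9 and 11.7 CPM at stage 45 (log2 fold change 1.67, SE 0.21, edgeR adjusted p = 0.00160). The lectin pathway protease gene masp1.S had 1.25 (edgeR adjusted p = 0.00750) and c2.L had 1.27 (edgeR adjusted p = 0.00867). The lower gene was ifitm5.L (-1.35, edgeR adjusted p = 0.0332). In fits without 1 library, higher genes in this list numbered 4 without stage 45 replicate 1 or 3, 5 without stage 47 replicate 1 or 2, 7 without stage 45 replicate 2, 8 without stage 47 replicate 3 and 3 without both. The call of ifitm5.L (adjusted p = 0.127) ended without stage 47 replicate 1.

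Of 86 liver genes tested (103 in the list), 14 were higher (16.3%, against 3.03% of all genes) and none lower. The list had the highest median of all the lists (1.18, against 0.27 in thioridazine heads). The summed level was 3326, 4745 and 4851 CPM at stage 47, against 1102, 2074 and 1616 CPM at stage 45, without overlap. In thioridazine heads it was 3188, 1313 and 2751 CPM at stage 47, against 2967, 2235 and 1216 CPM at stage 45, with overlap. Spread between the libraries was wide. The albumin gene alb.S measured 0.416, 5.02 and 16 CPM at stage 47, against 0, 0.832 and 0.231 CPM at stage 45, overlapping between the stages and not called (log2 fold change 4.39, SE 1.69, edgeR adjusted p = 0.175). The iron carrier gene tf.S measured 8.81, 25.7 and 31.1 CPM at stage 47, against 0.538, 4.16 and 2.6 CPM at stage 45 (log2 fold change 3.18, SE 0.76, edgeR adjusted p = 0.0412). The gene apoa4.S, encoding a lipid carrier of liver and gut, measured 0.914, 1.83 and 1.96 CPM at stage 47, against 0.154, 0.166 and 0 CPM at stage 45 (log2 fold change 3.93, SE 0.78, edgeR adjusted p = 0.0119). The copper carrier gene cp.L had 2.91 (edgeR adjusted p = 0.0178) and the clotting factor gene f9.L 3.04 (edgeR adjusted p = 0.0389). The tyrosine aminotransferase gene tat.L measured 16, 19.4 and 16.3 CPM at stage 47, against 8.77, 10.2 and 8.67 CPM at stage 45 (log2 fold change 0.91, SE 0.17, edgeR adjusted p = 0.00806), with less spread than the secreted proteins. With 1 library left out, higher liver genes numbered 3 without stage 47 replicate 2, 4 without stage 45 replicate 1 or 3, 5 without stage 47 replicate 1, 9 without stage 47 replicate 3, 11 without stage 45 replicate 2 and 4 without both. Of 29 gut and pancreas genes tested (82 in the list), 1 was higher (3.45%, near the 3.03% of all genes), apoa4.S. The digestive enzyme transcripts of stage 47 replicate 3 were not matched in the other stage 47 libraries. The call of f9.L (adjusted p = 0.110) ended without stage 45 replicate 1. The calls of tf.S (adjusted p = 0.133) and cp.L (0.0615) ended without stage 45 replicate 3. The call of apoa4.S (adjusted p = 0.0501) ended without stage 47 replicate 2.

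Enzymes of xenobiotic metabolism were higher in 7 of 54 cases (13.0%, against 3.03% of all genes) and lower in 2 (3.70%, near the 3.21% of all genes). Liver marker sums were also higher at stage 47, and their part in this result was not tested. Higher xenobiotic genes numbered 4 without stage 47 replicate 1, 2 or 3 or stage 45 replicate 1 or 3, 6 without stage 45 replicate 2 and 3 without both. The cytochrome P450 gene cyp1a1.L, a target of the aryl hydrocarbon receptor, measured 8.81, 4.96 and 5.0 CPM at stage 47, against 0.846, 1.17 and 1.27 CPM at stage 45 (log2 fold change 2.49, SE 0.41, edgeR adjusted p = 0.00563), and its homeolog cyp1a1.S measured 6.73, 7.15 and 6.84 CPM at stage 47, against 1.92, 1.75 and 2.6 CPM at stage 45 (log2 fold change 1.71, SE 0.26, edgeR adjusted p = 0.00341). Neither overlapped. The aldehyde dehydrogenase gene aldh3a2.L had 0.76 (edgeR adjusted p = 0.00160). The lower genes were the glutathione transferase gene gsta4.S (-1.36, edgeR adjusted p = 0.0109) and the acetyltransferase gene nat1 (-0.58, edgeR adjusted p = 0.00747). Cholesterol and lipid synthesis gave 4 higher (6.67%, against 3.03% of all genes) and none lower of 60. Higher genes of lipid synthesis numbered 1 without stage 47 replicate 2, 2 without stage 47 replicate 1 or stage 45 replicate 3, 3 without stage 47 replicate 3 or stage 45 replicate 1 or 2 and 3 without both. The fatty acid synthesis gene acaca.S had 0.66 (edgeR adjusted p = 0.0114). The call of nat1 (adjusted p = 0.0526) ended with the control libraries alone. The calls of gsta4.S (adjusted p = 0.0570) and acaca.S (0.0567) ended without stage 47 replicate 2.

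DNA replication and mitosis genes gave 6 lower (5.08%, against 3.21% of all genes) and none higher of 118, with 100 below 0 (median -0.18). The chromosomal passenger gene incenp.S measured 26.3, 27.8 and 26.2 CPM at stage 47, against 34.7, 44.5 and 40.1 CPM at stage 45 (log2 fold change -0.57, SE 0.11, edgeR adjusted p = 0.0102). The proliferation marker mki67 did not pass, at -0.29 for mki67.L and -0.02 for mki67.S (edgeR adjusted p = 0.450 and 0.967). In thioridazine heads 23 of the 118 were lower (median -0.36), against 2.77% of all genes. Lower genes in control heads numbered 1 without stage 47 replicate 1, 2 or 3 or stage 45 replicate 2 or 3, 8 without stage 45 replicate 1 and 5 without both. The gene lin28a.L, which blocks maturation of let-7 miRNAs and falls through animal development, measured 0.249, 0.354 and 0.298 CPM at stage 47, against 1.31, 1.17 and 0.925 CPM at stage 45 (log2 fold change -1.85, SE 0.46, edgeR adjusted p = 0.0283). Chaperones and stress genes split, with 5 higher (7.25%, against 3.03% of all genes) and 7 lower (10.1%, against 3.21%) of 69. Higher stress genes numbered 1 without stage 47 replicate 1 or stage 45 replicate 3, 2 without stage 47 replicate 2, 3 without stage 45 replicate 1, 5 without stage 47 replicate 3 or stage 45 replicate 2 and 3 without both, and lower ones 2 without stage 47 replicate 2, 4 without stage 47 replicate 1, 6 without stage 45 replicate 1, 7 without stage 47 replicate 3 or stage 45 replicate 2 or 3 and 1 without both. The endoplasmic reticulum isomerase gene pdia4.L measured 227, 249.7 and 205 CPM at stage 47, against 117, 132 and 125 CPM at stage 45 (log2 fold change 0.86, SE 0.10, edgeR adjusted p = 0.00106). The cytosolic and mitochondrial chaperone genes hsph1.L (-0.62, edgeR adjusted p = 0.00870) and hspd1.S (-0.58, edgeR adjusted p = 0.0105) were lower. No ribosomal protein gene of 136 was called with edgeR, with 129 above 0 (median 0.19) and 17 higher and 0 lower at an unadjusted p under 0.05. DESeq2 called 6 higher, and 18 were called higher without stage 45 replicate 2. Their sum was 110201, 108329 and 112763 CPM at stage 47, against 78084, 119774 and 94057 CPM at stage 45, which overlapped. None of 122 respiratory chain, 50 lipid use or 13 histone genes was called with edgeR. At an unadjusted p under 0.05, 8 respiratory chain genes were higher and 2 lower, 5 lipid use genes higher and 5 lower, and 1 histone gene higher and 1 lower. No share of all genes at this threshold stands beside these counts or those of the ribosomal protein genes. DESeq2 called 2 respiratory chain genes and 1 histone gene higher and 1 lipid use gene lower. Without stage 45 replicate 2, edgeR called 3 respiratory chain genes higher. The call of lin28a.L (adjusted p = 0.105) ended without stage 47 replicate 1.

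Growth factor and binding protein genes gave 4 higher and 1 lower of 112 (3.57% higher, near the 3.03% of all genes), led by igfbp4.S, which binds insulin-like growth factors (31.9, 29.1 and 32.9 CPM at stage 47, against 16.2, 17.6 and 16.5 CPM at stage 45; log2 fold change 0.90, SE 0.15, edgeR adjusted p = 0.00487). Higher growth factor genes numbered 1 without stage 47 replicate 1 or 2 or stage 45 replicate 1 or 3, 3 without stage 47 replicate 3, 4 without stage 45 replicate 2 and 2 without both. The immediate early list gave 3 higher (6.98%, against 3.03% of all genes) and 2 lower (4.65%, against 3.21%) of 43. Higher immediate early genes numbered 2 without stage 47 replicate 1 or 3 or stage 45 replicate 1, 2 or 3, 6 without stage 47 replicate 2 and 3 without both, and none was lower in those fits. The matricellular gene ccn1.S measured 108, 57.2 and 91.8 CPM at stage 47, against 48.1, 44.7 and 38.2 CPM at stage 45 (log2 fold change 0.97, SE 0.18, edgeR adjusted p = 0.00970), and ccn1.L had 0.66 (edgeR adjusted p = 0.00914). In thioridazine heads 11 of the 43 were higher and 1 was lower, against 2.09% and 2.77% of all genes. Retinoic acid genes gave 2 higher (3.92%, against 3.03% of all genes) and 4 lower (7.84%, against 3.21%) of 51. Among them were the retinol carrier rbp4.S, also in the liver list (1.14, edgeR adjusted p = 0.0223), and the retinoic acid hydroxylase gene cyp26a1.L (-0.86, edgeR adjusted p = 0.0404). Lower retinoic acid genes numbered 0 without stage 47 replicate 1 or 2 or stage 45 replicate 1 or 2, 1 without stage 45 replicate 3, 5 without stage 47 replicate 3 and 1 without both. Of 28 clock genes, 2 were lower (7.14%, against 3.21% of all genes). They were nr1d1.L (-0.75, edgeR adjusted p = 0.0150) and the melatonin synthesis gene aanat.L (-0.77, edgeR adjusted p = 0.0286). The time of day of sampling is not given in the labels. Of 57 glycolysis and hypoxia genes, 1 was higher (1.75%, against 3.03% of all genes) and 2 lower (3.51%, near the 3.21%). Of 32 pigment cell genes, 2 were higher (6.25%, against 3.03% of all genes), including the stem cell factor receptor gene kit.S (0.74, edgeR adjusted p = 0.0194). Of 21 pronephros genes, 1 was higher (4.76%, against 3.03% of all genes), slc4a4.S (0.43, edgeR adjusted p = 0.0312). The call of nr1d1.L (adjusted p = 0.0635) ended without stage 47 replicate 1. The calls of rbp4.S (adjusted p = 0.0866), cyp26a1.L (0.159), aanat.L (0.127) and kit.S (0.0789) ended without stage 47 replicate 2. The call of slc4a4.S (adjusted p = 0.0993) ended without stage 47 replicate 3.

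Genes outside the lists with the smallest p-values were the following. The gene hopx.L, an atypical homeodomain gene, measured 26.4, 24.3 and 22.8 CPM at stage 47, against 9.23, 11.4 and 8.61 CPM at stage 45 (log2 fold change 1.33, SE 0.13, edgeR adjusted p = 0.000381). The gene rabac1.S, encoding a receptor of Rab proteins, measured 90.7, 78.9 and 73.5 CPM at stage 47, against 35.0, 42.2 and 37.0 CPM at stage 45 (log2 fold change 1.09, SE 0.11, edgeR adjusted p = 0.000381). The gene col21a1.L, encoding a fibril-associated collagen, had 1.40 (edgeR adjusted p = 0.00126), and the methionine cycle gene mat1a.L had 1.11 (edgeR adjusted p = 0.00160). On the lower side, the chromatin remodeller gene srcap.S measured 32.5, 41.5 and 47.0 CPM at stage 47, against 73.4, 77.0 and 80.8 CPM at stage 45 (log2 fold change -0.93, SE 0.12, edgeR adjusted p = 0.00160), and srcap.L had -0.88 (edgeR adjusted p = 0.00274). The RNA-binding protein genes celf3.S (-0.81, edgeR adjusted p = 0.00207), stau1.L (-0.81, edgeR adjusted p = 0.00216) and rbm14.S (-0.71, edgeR adjusted p = 0.00260) were lower. All of these genes were separate between the stages, as were nearly all called genes.

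Where a copy was called, homeologs mostly had the same sign of change. Among 6985 pairs with both copies tested, 790 had at least 1 called copy. Both were called in 179 pairs, of which 71 were higher in both, 107 lower in both and 1 opposite. In the 611 pairs with 1 called copy, the other copy had the same sign in 573. The share of all 6985 pairs with the same sign is not given, so an excess over it cannot be read from these counts. Across pairs the log2 fold changes of the L and S copies correlated at a Pearson r of 0.68, which is across genes of the same libraries and includes copies that may share reads. Of L copies in pairs 7.26% were called, and of S copies 6.61%.

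The stage change was measured a second time in thioridazine heads, in libraries that share no sample with the controls but were fitted with them. Some same-numbered libraries of both treatments deviated together, however. On the second principal component, stage 45 replicate 2 lay at -40.1 in thioridazine heads and -58.2 in control heads. On the third, which held 14.0% of the variance, replicate 3 of all 4 groups lay between -37.8 and -21.1. The labels do not say whether a number marks a shared clutch or batch, so that the sets of libraries may not be independent. In thioridazine heads 1314 genes were called (4.86% of those tested), 565 higher (2.09%) and 749 lower (2.77%). Of the 820 genes higher in control heads, 815 had the same sign in thioridazine heads and 353 were called there. Of the 869 lower genes, 850 had the same sign and 440 were called. The share of all 27050 genes with the same sign is not set beside these counts. Genes called in both and in the same direction numbered 793, which is 47.0% of the control calls and 60.4% of the thioridazine calls, and 1 was called in opposite directions. The log2 fold change was 1.62 for krt78.1.L, 2.68 for ouro1.S and -2.64 for xepsin.S in thioridazine heads, against 1.96, 2.02 and -3.33 in control heads. With DESeq2 the test of the difference between the 2 stage changes called 2 genes. They were the c3.L and crygbl.5.S named above (the second chosen after its values were seen). With edgeR the test called no gene. An unadjusted p under 0.05 was reached by 575 of 27050 genes with edgeR, a share below 0.05. At 3 libraries a group these counts do not show that the stage changes are alike.

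**Figure D5:**
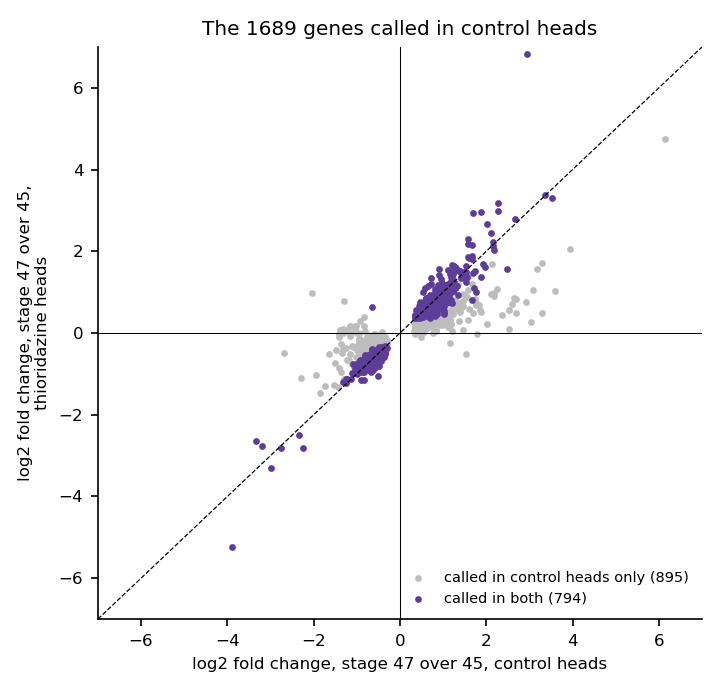
Log2 fold change of stage 47 over stage 45 in thioridazine heads (y) against control heads (x) for the 1689 genes called in control heads, purple where also called in thioridazine heads (794, of which 793 in the same direction) and grey where not (895). The dashed line marks equal changes, and 24 genes have opposite signs.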

How the data were processed

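RNA from whole heads was sequenced as 100 bp single-end reads from unstranded TruSeq v2 libraries, per the labels' protocols. The authors' deposited tables list 37018 genes with whole, unnormalised read counts. Trimmomatic, HISAT2, HTSeq and DESeq2 are the tools in the submitters' processing notes. Versions, build, annotation and the treatment of multi-mapping reads were not given in the sources used here. Reads of near-identical homeologs or paralogs, and of antisense genes, may be miscounted. Identifiers were matched to gene symbols with a RefSeq table of assembly Xenopus_laevis_v10.1, used for names alone (33597 matched, 3421 did not). No sequence was available for these genes in the sources used here, and none is printed.

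Counts were fitted in R 4.3.3 with edgeR 4.0.16 (TMM, filterByExpr, robust quasi-likelihood), using all 12 libraries with a coefficient for each of 4 groups, and Benjamini-Hochberg adjustment ran over 27050 genes. CPM uses TMM library sizes, and log2 CPM a prior count of 2. The standard error is the log2 fold change divided by the square root of F, with a median of 0.18. Replicates of a group had Spearman correlations of 0.984 to 0.986 at stage 47 and 0.966 to 0.983 at stage 45, and no 2 were identical. On simulated counts of 27050 genes for the control comparison, the fit recovered 84 of 100 genes changed 2-fold and 25 of 100 changed 1.5-fold, with 5 false calls. The changed genes averaged more than 100 counts. Every gene had the same coefficient of variation of 0.16, and no deviation of a whole library was simulated. The members, 44 gene lists, rules and tests were chosen with earlier results of these data known, and 3 further lists after the values were seen. Named genes were the 12 higher and 12 lower with the largest change (called, at least 1 CPM in a stage, no overlap), the 12 and 12 with the smallest p at 10 CPM or more, up to 4 called genes per list and direction, and a fixed set (col2a1, sox9, rho, mbp, thrb, klf9, dio3, mki67, globins, alb, prss1). Some genes that the rule names are not reported here, though the counts include them. Alternatives were upper-quartile and RLE scaling, DESeq2 1.42.0, 2 other filters, summed homeologs, the control libraries alone, a replicate block, each control library left out in turn and, chosen after seeing the data, 2 control libraries left out. A call "ended" where the adjusted p was 0.05 or more in such a fit; the end of a paragraph lists calls that ended without 1 library, or else by DESeq2 or with the control libraries alone.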

Additional observations from a re-analysis of the deposited data

How the results depend on the processing

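The 1689 calls in control heads (820 higher, 869 lower) became 660 (448 higher, 212 lower) with the control libraries alone, and 896 (363 higher, 533 lower) without stage 47 replicate 3 and stage 45 replicate 1. Leaving out 1 control library gave 429 to 1437 calls, 270 to 787 higher and 159 to 772 lower. DESeq2 gave 2313, and the other scalings and filters 1503 to 1781, all within 1.5 times. DESeq2 called 2 genes for the difference between the stage changes (1 higher, 1 lower), against 0, and 1998 genes (931 higher) in thioridazine heads, against 1314. Of 195 named genes that were called, 82 were called without each control library in turn and 72 in every alternative that gave a value; 113 calls ended without at least 1 library, and none turned sign. With 3 libraries a stage, 25 of 100 simulated 1.5-fold changes were recovered, all in genes averaging more than 100 counts. The simulation held no deviation of a whole library, so its recovery and false calls may not carry over to these data.

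Deviations of same-numbered control libraries from their stage means correlated at 0.181, 0.014 and 0.352. For differently numbered libraries the correlations were -0.274 to 0.0594. The labels do not say what a replicate number marks, and the main fit did not take it to pair the samples. A deviation shared by a number was thus not removed in the main fit. A fit with the replicate number as a block gave 3068 calls (1450 higher, 1618 lower) in control heads and 2704 (1231 higher, 1473 lower) in thioridazine heads. With the control libraries alone, the block gave 780 (544 higher, 236 lower).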

Other observations

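The 3 lists described here were drawn up after the values were seen, so their counts are descriptions. Ribosome assembly factors were lower at stage 47 in 43 of 133 cases (32.3%, against 3.21% of all genes) and higher in none (median log2 fold change -0.37, against -0.01 over all genes tested). The nucleolar methyltransferase gene fbl.S measured 40.6, 42.5 and 45.6 CPM at stage 47, against 71.5, 78.6 and 87.8 CPM at stage 45 (log2 fold change -0.89, SE 0.12, edgeR adjusted p = 0.00232), and pwp2.S, of the small subunit processome, measured 21.4, 22.6 and 23.3 CPM at stage 47, against 36.5, 45.9 and 38.4 CPM at stage 45 (log2 fold change -0.84, SE 0.11, edgeR adjusted p = 0.00171). For both genes every stage 47 library lay below every stage 45 library. The sum over the list was 6579.8, 6883 and 6613 CPM at stage 47, against 7268, 8787 and 7821 CPM at stage 45, without overlap. In fits without 1 library, lower genes numbered 15 without stage 47 replicate 1 or 2, 21 without stage 45 replicate 3, 25 without stage 45 replicate 2, 28 without stage 47 replicate 3, 37 without stage 45 replicate 1 and 26 without both of stage 47 replicate 3 and stage 45 replicate 1. In thioridazine heads 45 of the 133 were lower (median -0.40), against 2.77% of all genes. No ribosomal protein gene was called in the main edgeR fit, with a median of 0.19. DESeq2 called 6 higher, and edgeR called 18 higher without stage 45 replicate 2.

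Splicing and RNA-binding genes were lower in 29 of 151 cases (19.2%, against 3.21% of all genes) and higher in none (median -0.22). The level of hnrnpa1.S was 159, 163 and 181 CPM at stage 47, against 244, 306 and 274 CPM at stage 45 (log2 fold change -0.71, SE 0.12, edgeR adjusted p = 0.00550) and srrm1.L 35.0, 40.7 and 44.6 CPM at stage 47, against 61.4, 65.2 and 67.1 CPM at stage 45 (log2 fold change -0.68, SE 0.11, edgeR adjusted p = 0.00405), without overlap. With 1 library left out, lower genes numbered 6 without stage 47 replicate 1, 10 without stage 47 replicate 2, 12 without stage 45 replicate 3, 16 without stage 45 replicate 2, 25 without stage 45 replicate 1, 28 without stage 47 replicate 3 and 26 without both. In thioridazine heads 29 of the 151 were lower, against 2.77% of all genes. Genes of the endoplasmic reticulum and the early secretory path were higher in 9 of 124 cases (7.26%, against 3.03% of all genes) and lower in 2 (median 0.14). The higher ones numbered 25 by DESeq2, 22 with the replicate number as a block, 18 with upper-quartile scaling and 5 with the control libraries alone. With 1 library left out they numbered 4 without stage 47 replicate 2 or stage 45 replicate 3, 5 without stage 47 replicate 1, 7 without stage 45 replicate 1, 9 without stage 47 replicate 3, 12 without stage 45 replicate 2 and 7 without both. The peroxiredoxin gene prdx4.L measured 83.2, 87.7 and 86.8 CPM at stage 47, against 41.8, 55.3 and 50.8 CPM at stage 45 (log2 fold change 0.80, SE 0.12, edgeR adjusted p = 0.00314), and the KDEL receptor gene kdelr3.S had 0.78 (edgeR adjusted p = 0.00621). In thioridazine heads 3 of the 124 were higher and 1 was lower, against 2.09% and 2.77% of all genes.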
